A study of Mus musculus with 8 samples.

Results

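The cell cycle and DNA replication genes described here are a set of 43 genes that dividing cells use to copy and separate their chromosomes, 18 of them acting in S phase and 25 in mitosis. They were chosen by gene symbol, and rows of the same symbol were summed within a library. Of the 43, 42 had their own symbol in all 8 tables, among 22725 symbols found in all 8. The exception was Foxm1, which stood in a joint row with 4933413G19Rik in the E12 tables and had its own row at E17.5. RNA of embryonic mouse hypothalamus was sequenced from Foxd1-mutant and wild-type embryos, with 1 library per genotype at embryonic day 12 (E12.0), 1 per genotype at E12.5 and 2 per genotype at E17.5. The mutant pools came from 8 Foxd1-null embryos and the other pools from 10 control embryos, and each library was made from pooled RNA. The labels describe the controls in words that allow either genotype, so genotype was taken from each library's source name. Whether the pools of a genotype were separate litters was not stated, so p-values measure the spread between these libraries, which may be technical. The growth notes name E12.5 and E17.5 alone, so the origin of the E12.0 tissue is not settled. Bulk tissue was measured, in which fewer cells of a type and less RNA per cell cannot be told apart.

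Cells enter the cycle through D-type and E-type cyclins with their kinases, which release E2F transcription factors from Rb proteins and so switch on the genes for DNA replication. The DREAM complex, and the MuvB complex joined with B-Myb or FoxM1, control the mitotic genes. Promoters of these genes often carry elements called CHR and CCAAT boxes. In the early hypothalamus these genes are known for their activity in the progenitors that line the third ventricle, which leave the cycle as neurons form. Foxd1 encodes a forkhead transcription factor of the ventral diencephalon.

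Promoter windows, from 250 bases before to 50 bases after the start of a RefSeq transcript on build GRCm38.p6, were found for 34 of the 43 genes (13 S-phase and 21 mitotic). The 5 windows printed here were picked for the motif matches they carry, and they include some of the genes with the highest levels. The S-phase and mitotic groups were set by gene lists, not by these motifs. Capitals mark every match, on both strands, to 3 motifs. The CHR motif was read as TTTGAA, or with its variant spelling as TTCGAA. The second motif was the CCAAT box itself. An E2F motif was any of TTTCCCGC, TTTCGCGC, TTTGCCGC and TTTGGCGC. Mcm5 and Mcm6 are helicase subunits of S phase, Top2a encodes the topoisomerase that untangles sister chromosomes, Ccnb2 a mitotic cyclin, and Cdk1 the kinase that cyclin B activates.
Mcm5 (chr8:75109259-75109558, plus strand): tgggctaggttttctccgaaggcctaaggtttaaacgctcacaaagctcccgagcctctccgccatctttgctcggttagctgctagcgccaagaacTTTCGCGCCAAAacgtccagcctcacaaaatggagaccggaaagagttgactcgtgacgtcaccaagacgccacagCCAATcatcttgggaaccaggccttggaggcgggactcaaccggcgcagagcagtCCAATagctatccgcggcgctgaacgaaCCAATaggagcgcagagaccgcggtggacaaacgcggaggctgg
Mcm6 (chr1:128359656-128359955, minus strand): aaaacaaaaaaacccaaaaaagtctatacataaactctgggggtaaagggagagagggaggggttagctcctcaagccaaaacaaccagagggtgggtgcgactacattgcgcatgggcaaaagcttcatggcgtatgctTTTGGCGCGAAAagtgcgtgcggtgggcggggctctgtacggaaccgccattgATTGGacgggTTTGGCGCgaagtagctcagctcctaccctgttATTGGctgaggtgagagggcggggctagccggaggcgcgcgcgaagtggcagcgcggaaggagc
Top2a (chr11:99024140-99024439, minus strand): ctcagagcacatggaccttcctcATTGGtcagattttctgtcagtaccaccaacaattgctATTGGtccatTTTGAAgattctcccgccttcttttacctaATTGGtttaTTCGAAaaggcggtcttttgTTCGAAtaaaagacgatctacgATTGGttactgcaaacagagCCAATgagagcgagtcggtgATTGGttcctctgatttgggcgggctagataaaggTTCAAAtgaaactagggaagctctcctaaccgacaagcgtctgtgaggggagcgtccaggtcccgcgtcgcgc
Ccnb2 (chr9:70421505-70421804, minus strand): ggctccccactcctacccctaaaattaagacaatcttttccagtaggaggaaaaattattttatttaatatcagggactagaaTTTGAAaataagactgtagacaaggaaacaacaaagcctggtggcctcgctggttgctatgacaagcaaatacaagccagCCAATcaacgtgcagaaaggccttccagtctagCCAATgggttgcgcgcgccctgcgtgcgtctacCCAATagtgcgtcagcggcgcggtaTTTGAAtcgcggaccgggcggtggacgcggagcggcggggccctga
Cdk1 (chr10:69352863-69353162, minus strand): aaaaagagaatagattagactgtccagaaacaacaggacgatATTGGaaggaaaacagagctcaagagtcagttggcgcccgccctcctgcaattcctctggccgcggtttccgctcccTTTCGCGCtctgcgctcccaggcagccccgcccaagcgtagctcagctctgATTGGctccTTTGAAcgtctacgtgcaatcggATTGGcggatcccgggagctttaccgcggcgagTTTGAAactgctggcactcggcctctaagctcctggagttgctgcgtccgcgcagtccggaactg
In Mcm5 a pair of E2F matches overlapped each other, as did the first pair in Mcm6, and no match in the printed windows overlapped a match to a different motif. Top2a held 4 CHR and 6 CCAAT matches and no E2F match. Mcm6 held 3 E2F and 2 CCAAT matches and no CHR match. Cdk1 held all 3 kinds. An E2F match was found in 7 of the 13 S-phase genes (53.8%) and in 1 of the 21 mitotic genes (4.76%, Cdk1), against 2.60% of the 27025 genes with a window. A CHR match was found in 2 of the S-phase genes (15.4%) and in 15 of the mitotic genes (71.4%), against 21.7% of all genes. Those same counts of genes held CHR and CCAAT together, which 8.61% of all genes did. A CCAAT match, with or without CHR, was common in both groups. It was found in 9 of the S-phase genes (69.2%) and 18 of the mitotic genes (85.7%), against 41.1% of all genes. A match is a run of letters, not a measured binding site, and the windows of Ect2 and of Prc1 each came in a pair that share most of their sequence. Mcm7 also had a pair of windows, which do not overlap. Its CHR and E2F matches were all in the same window, so it was counted for both motifs through that window alone.

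Foxd1 itself checked the labels: it had 2.77 and 2.50 FPKM in the mutant tissue of E12.0 and E12.5, against 25.0 and 30.3 FPKM in wild-type tissue. At E17.5 it had 0.396 and 0.230 FPKM in mutant libraries and 3.90 and 1.96 FPKM in wild-type libraries. Between 11572 and 13219 genes reached 1 FPKM per library. Estimated depth at E17.5 was 30.2 to 43.5 M fragments, and the estimate of 4.04 to 56.2 M at E12 is uncertain. By correlation, 2 of the libraries stood apart. Mutant replicate 2 of E17.5 correlated least with the other 3 of its stage (Pearson r across genes of 0.987 to 0.988, against 0.992 to 0.994 between the others), and its small RNA genes took 9.87% of FPKM, against 13.9% to 14.7% in the other 3. The wild-type E12.0 library correlated least with the others at E12 (0.920 to 0.944, against 0.951 to 0.965). Small RNA shares at E12 were lowest in the mutant E12.5 library, at 14.7%, against 23.2% in the wild-type E12.5 library. At E12.0 they were 21.2% (mutant) and 24.5% (wild type).

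FPKM is a level per length, so levels can be set beside each other between genes. Pcna, the sliding clamp of the replication fork, had the highest mean of the set over the 4 libraries of E12, with 138 FPKM in mutant and 111 FPKM in wild-type tissue at E12.0, and 119 FPKM in mutant and 111 FPKM in wild-type tissue at E12.5. Ccnd1, the cyclin that starts the cycle, was next and stood above Pcna in the wild-type E12.0 library, with 114 (mutant) and 119 FPKM (wild type) at E12.0 and 109 (mutant) and 95.6 FPKM (wild type) at E12.5. Among mitotic genes Top2a was highest, with 92.9 (mutant) and 79.1 FPKM (wild type) at E12.0 and 81.8 (mutant) and 69.2 FPKM (wild type) at E12.5. Each was the highest of its role at E12 in all 4 libraries. The lowest was Cdc6, the loader of the replicative helicase, with 4.93 (mutant) and 3.65 FPKM (wild type) at E12.0 and 3.78 (mutant) and 3.24 FPKM (wild type) at E12.5.

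**Figure D1:**
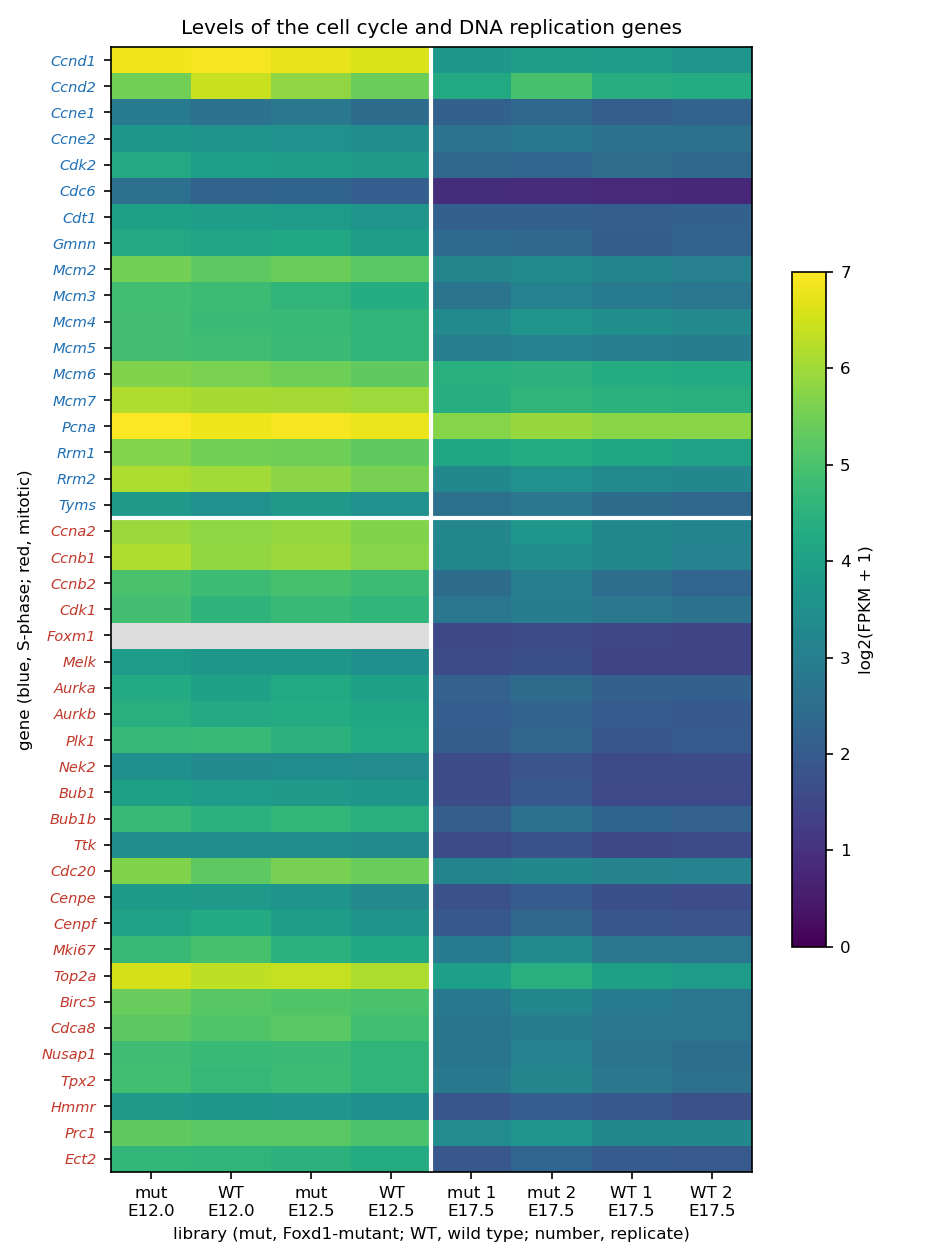
Level of each of the 43 genes in each library, as log2(FPKM + 1), with S-phase genes (blue names) above mitotic genes (red names) and grey where a gene had no row of its own. The 4 libraries of E12 are brighter than the 4 of E17.5 for every gene with values at both, and mutant and wild-type columns of a stage look alike.

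All 42 genes had lower levels at E17.5 than at E12 in both genotypes. The summed FPKM of the 18 S-phase genes was 755 and 683 in mutant tissue and 730 and 601 in wild-type tissue at E12.0 and E12.5. At E17.5 the same sum was 204 and 243 in mutant and 209 and 199 in wild-type libraries. For the 24 mitotic genes the sums were 733 and 667 (mutant) and 652 and 577 (wild type) at the early stages, and 121 and 157 (mutant) and 119 and 112 (wild type) at E17.5. The ratio of the E12 mean to the E17.5 mean had a median of 3.47 for S-phase genes and 5.09 for mitotic genes in mutants. In wild types these medians were 3.20 and 5.28, and over all genes the median ratio was 0.820 in mutants and 0.822 in wild types. A lower level at E17.5 was found for 34.7% of all genes in mutants and 34.9% in wild types. The E12 tables list genes and the E17.5 tables list transcripts, and they were made separately, so these ratios are a description without a test.

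**Figure D2:**
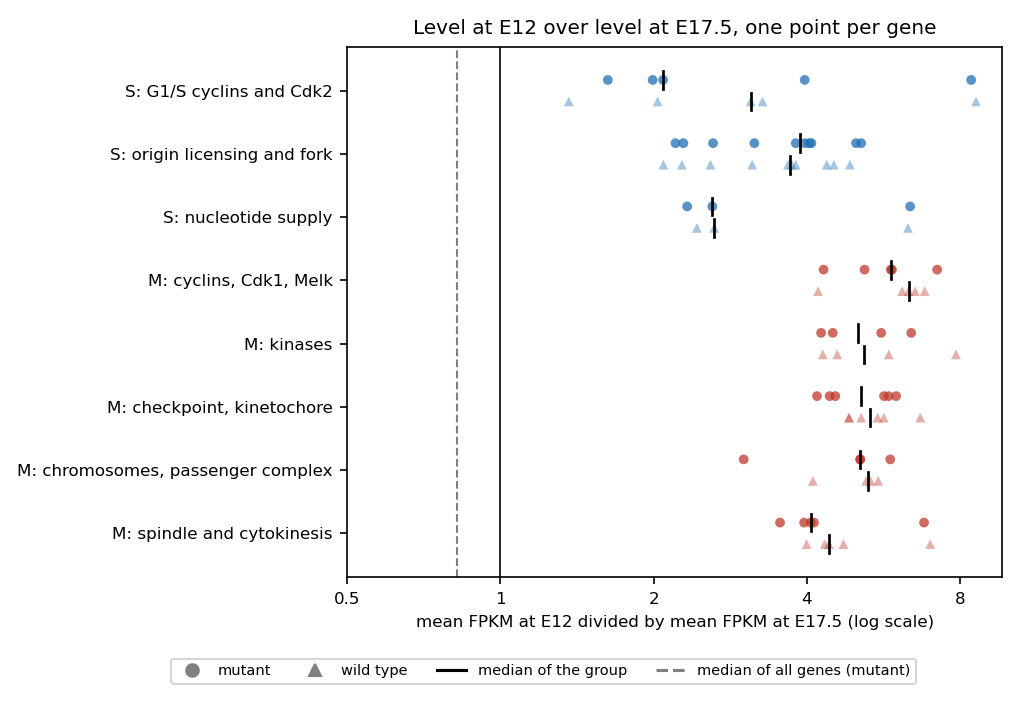
Mean FPKM at E12 divided by mean FPKM at E17.5 for each gene, on a log scale, by role (S, S phase; M, mitosis), with circles for mutants above triangles for wild types, black ticks at group medians and a dashed line at the median of all genes in mutants. Every point lies to the right of 1, from 1.63 to 8.42 in mutants and from 1.36 to 8.60 in wild types.

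The ratios differed between genes. Ccnd1 had the largest ratio, 8.42 in mutants and 8.60 in wild types, while Ccne1, an E-type cyclin, had 1.63 in mutants and 1.36 in wild types. Pcna had 2.29 in mutants and 2.09 in wild types. Each mitotic gene lay between 3.01 (Mki67) and 7.22 (Ccnb1) in mutants, and between 3.997 (Prc1) and 7.86 (Plk1) in wild types. Summed neuronal markers moved the other way, with 1336 and 2080 FPKM in mutants and 1355 and 2282 FPKM in wild types at E12. At E17.5 these sums were 3615 and 3449 FPKM in mutants and 3563 and 3722 FPKM in wild types. Of these 12 markers, 0 were lower at E17.5 in mutants and 2 in wild types. Of 11 neural progenitor markers 9 were lower at E17.5 in both genotypes, with a median ratio of E12 to E17.5 of 2.72 in mutants and 2.91 in wild types. Fabp7 was an exception and gave most of the list's sum at E17.5, with 1092 and 1046 FPKM in mutants and 1083 and 1087 FPKM in wild types there. Within E12, from E12.0 to E12.5, 39 of 42 genes were lower at E12.5 in mutants and 36 of 42 in wild types, while 7.45% (mutant) and 19.4% (wild type) of all genes were lower. The median log2 ratio of E12.5 to E12.0 was -0.14 over the set in mutants and -0.17 in wild types. Over all genes it was 0.41 in mutants and 0.43 in wild types, so the set lay below a general shift toward higher E12.5 values, with 1 library per genotype and stage.

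At E17.5 nearly all of these genes had slightly higher values in mutant than in wild-type tissue, and no difference passed the test. Of the 42 genes that averaged 1 FPKM or more, 41 were higher in mutants, against 51.0% of all 13235 genes tested. The median difference of log2(FPKM + 1), mutant minus wild type, was 0.16 (0.11 for 17 S-phase and 0.21 for 25 mitotic genes), against 0.003 over all genes. Limma fits a linear model to each gene and shares information on variance across genes. It called 0 of the 42 at an adjusted p under 0.05, where it called 1 gene in all (0.00756%). The smallest adjusted p of the set was 0.689. Foxd1 itself was not called there, with a log2 difference of -1.54 ± 0.24 (limma adjusted p = 0.689). A gene left uncalled was therefore not shown to be unchanged. At an unadjusted p under 0.05 there were 5 members (Gmnn, Mcm6, Tyms, Melk and Prc1), all higher in mutants, as were 2.18% of all genes. Both mutant libraries lay above both wild-type libraries for 21 of the 43 genes, and for 20.9% of all genes.

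The size of the difference rested on mutant replicate 2. That library was the highest of the 4 for 39 of the 43 genes, the exceptions being Cdk2, Cdc6, Cdt1 and Gmnn. Its median difference from the wild-type mean was 0.20 for S-phase and 0.33 for mitotic genes. Mutant replicate 1 differed from the wild-type mean by a median of -0.005 for S-phase genes (8 of 17 higher) and 0.05 for mitotic genes (22 of 25 higher). The median over all 42 was therefore 0.04 without mutant replicate 2 and 0.27 without mutant replicate 1. Wild-type replicate 1 also stood above wild-type replicate 2 for 35 of the 43 genes, by a median of 0.07 over the 42 tested. Mutant replicate 2 was the library with the highest summed telencephalon markers (118 FPKM, against 54.2 FPKM in mutant replicate 1 and 53.0 and 51.5 FPKM in wild types). All 11 of these markers were higher in it than in mutant replicate 1, and the genotype difference was positive for all 11 (median 0.59). In mutant replicate 1 these markers were higher than the wild-type mean for 5 of 11. At E12, 2 of the 10 tested were higher in mutants (median -0.12), with 2 at E12.0 alone (median -0.15) and 5 at E12.5 alone (median 0.009). Markers of the meninges were also higher in mutants at E17.5 for 7 of 8 (median 0.46). Their sums were 250.1 and 177 FPKM in mutants and 225 and 138 FPKM in wild types. The libraries were ordered differently: all 8 were lower in mutant replicate 2 than in mutant replicate 1. All 8 were also lower in wild-type replicate 2 than in wild-type replicate 1, by a median of 0.57. Oligodendrocyte lineage markers were lower in mutants for 7 of 8 (median -0.17), with sums of 83.9 and 74.2 FPKM in mutants and 89.99 and 85.6 FPKM in wild types. No marker of these 3 lists passed the adjusted threshold and none was at 0 in an E17.5 library. Among further lists at E17.5, endothelial markers were higher in mutants for 7 of 8 (median 0.13) and microglial markers for 7 of 8 (median 0.04). Pericyte markers were higher for 4 of 6 (median 0.02) and erythroid markers for 5 of 8 tested (median 0.04). None of these passed the adjusted threshold either. The part of these tissues in the result was not tested.

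**Figure D3:**
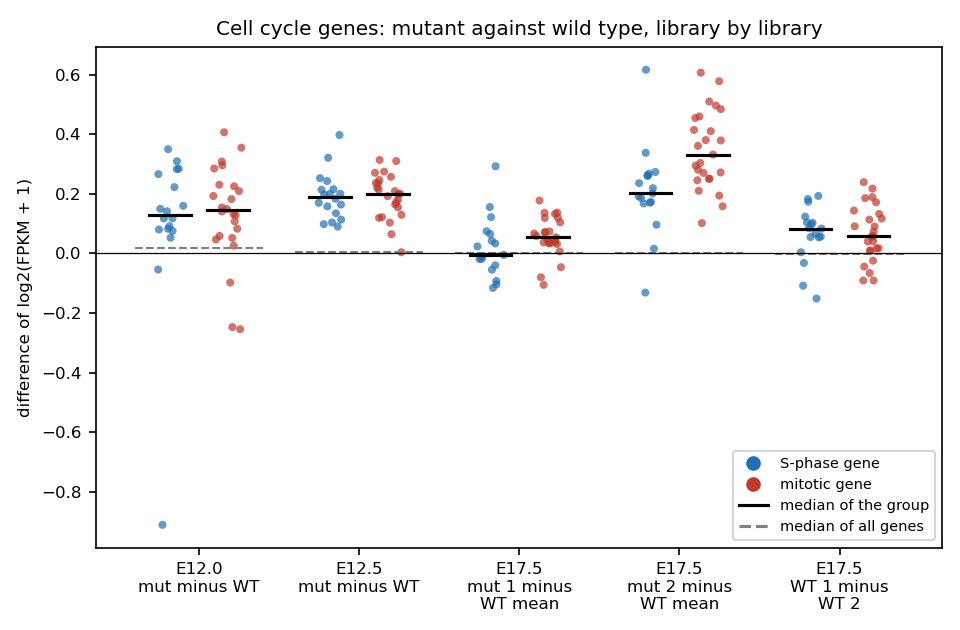
Difference of log2(FPKM + 1) for each S-phase gene (blue) and mitotic gene (red) in 5 comparisons of single libraries, with black bars at group medians and grey dashes at the median of all genes. At E17.5 the points of mutant replicate 2 lie mostly between 0.1 and 0.6, while those of mutant replicate 1 lie around 0, at about the height of the difference between the wild-type replicates on the far right.

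At E12 the genes again had slightly higher values in mutant than in wild-type tissue, and again none passed the test. In the fit of both early stages 41 of 42 genes were higher in mutants, against 52.2% of 11952 genes tested, with a median log2 difference of 0.17 (0.16 for S-phase and 0.18 for mitotic genes) against 0.01 over all genes. Limma called 0 of the 42, where it called 4 genes in all (0.0335%), and the smallest adjusted p of the set was 0.976. Foxd1 was among the genes called, at -2.97 ± 0.16 (limma adjusted p = 0.0305). None of the 42 had an unadjusted p under 0.05, a mark that 0.602% of all genes passed with higher values in mutants. With 1 library per genotype and stage, the spread in this fit is how far the genotype difference varied between E12.0 and E12.5. The mutant value exceeded the wild-type value at both stages for 37 of the 42 genes, and for 25.9% of all genes.

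Each early stage was also read alone, without a test. At E12.0, 37 of 42 genes were higher in the mutant library, with a median log2 difference of 0.14, and 23 were higher by more than 1.1-fold, as were 35.8% of all genes. The 5 lower genes were Ccnd1, Ccnd2, Plk1, Cenpf and Mki67. At E12.5 all 42 were higher in the mutant library, with a median of 0.20, and 33 were higher by more than 1.1-fold, as were 16.4% of all genes. That stage did not involve the wild-type E12.0 library, and it rests on 1 mutant and 1 wild-type library. Small RNA genes took 14.7% of FPKM in that mutant library and 23.2% in that wild-type library. The part of single libraries in the result was not tested.

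Transcript length moved with the difference at E12.0. Over all genes at that stage the median log2 difference was 0.14 for transcripts up to 2000 nt, 0.04 from 2000 to 4000 nt, -0.06 from 4000 to 6000 nt and -0.18 above 6000 nt. At E12.5 the same 4 medians ran from -0.02 to 0.03. The set has 4 genes above 6000 nt: Ccnd2, Cenpe, Mki67 and Cenpf. Of these 1 was higher in the mutant library at E12.0 and all 4 at E12.5. In the 3 shorter ranges 8 of 8, 24 of 26 and 4 of 4 genes of the set were higher in the mutant library at E12.0, and all of them at E12.5. The part of transcript length in the result was not tested.

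**Figure D4:**
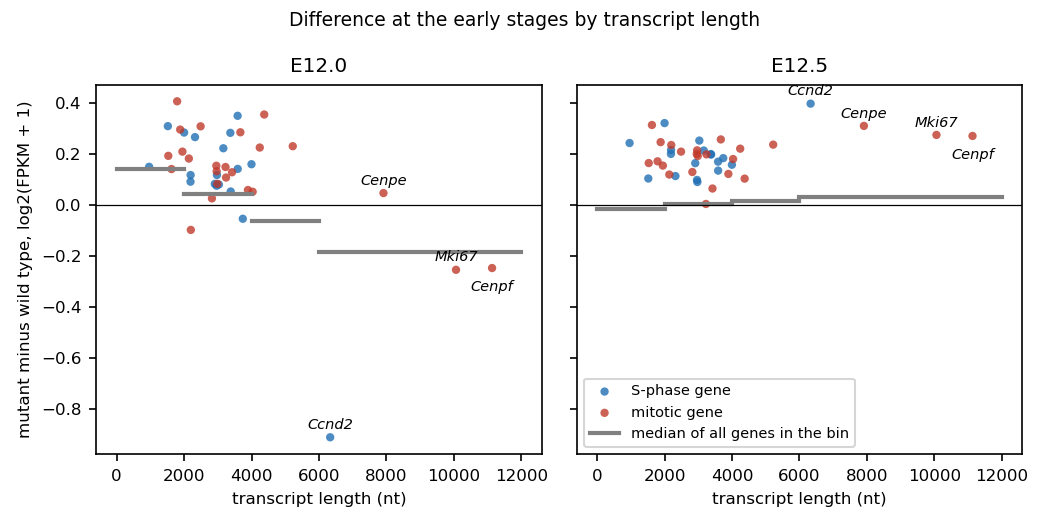
Mutant minus wild-type difference of log2(FPKM + 1) against transcript length at E12.0 (left) and E12.5 (right), with one point per S-phase (blue) or mitotic (red) gene and grey bars at the median of all genes in each length range (the last bar stands for all transcripts above 6000 nt). At E12.0 the bars step down from 0.14 to -0.18 and the long genes Ccnd2, Mki67 and Cenpf lie below 0, while at E12.5 the bars stay near 0 and every gene lies above it.

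Among the cyclins that start the cycle, Ccnd2 varied most. It had 44.3 FPKM in mutant and 84.1 FPKM in wild-type tissue at E12.0, and 56.0 FPKM in mutant and 42.3 FPKM in wild-type tissue at E12.5, so the mutant was lower at the earlier stage and higher at the later. At E17.5 Ccnd2 had 17.9 and 30.1 FPKM in the mutant and 19.7 and 18.9 FPKM in the wild-type libraries. Replicate 2 of the mutant was alone above the wild types and replicate 1 was below both, and the log2 difference of 0.26 ± 0.22 (SE) did not pass the test (limma adjusted p = 0.722). Without mutant replicate 1 it became 0.62 and passed (limma adjusted p = 0.0484), with the 1 mutant library left assumed to vary like the wild-type pair, and without mutant replicate 2 it was -0.10. Ccnd1, which had the highest level of this group, had 12.4 and 14.1 FPKM in the mutant and 13.3 and 11.6 FPKM in the wild-type libraries at E17.5, and the ranges overlapped.

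Ccne1 had the largest difference of the set at E12, 0.30 ± 0.14 on the log2 scale. Its levels were 6.43 (mutant) and 5.10 FPKM (wild type) at E12.0 and 5.92 (mutant) and 4.54 FPKM (wild type) at E12.5, with the mutant higher at both stages. Ccne1 had 3.503 and 4.10 FPKM in the mutant and 3.37 and 3.71 FPKM in the wild-type libraries at E17.5, where the groups overlapped. Cdk2, the kinase partner of E-type cyclins, was, in the values as deposited, the only gene of the set lower in mutants at E17.5, with 4.03 and 3.89 FPKM in the mutant and 4.71 and 4.03 FPKM in the wild-type libraries and a log2 difference of -0.11 ± 0.09 (limma adjusted p = 0.710). Both mutant libraries were lower, though the higher mutant value and the lower wild-type value were nearly equal. At E12 Cdk2 had 17.6 (mutant) and 14.4 FPKM (wild type) at E12.0 and 13.8 (mutant) and 12.7 FPKM (wild type) at E12.5, higher in the mutant at both stages. Ccne2 was higher in every mutant comparison, with a log2 difference of 0.10 ± 0.13 at E12 and 0.12 ± 0.08 at E17.5.

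The genes that license origins and copy DNA were higher in mutants at both early stages for 10 of 10, and at E17.5 for 9 of 9 tested. Gmnn encodes geminin, which holds the licensing factor Cdt1 in check. It had 17.8 FPKM in mutant and 15.9 FPKM in wild-type tissue at E12.0, and 17.03 FPKM in mutant and 14.2 FPKM in wild-type tissue at E12.5. At E17.5 it had 4.44 and 4.17 FPKM in the mutant and 3.21 and 3.68 FPKM in the wild-type libraries, with both mutants above both wild types. Its log2 difference there was 0.26 ± 0.09 (limma adjusted p = 0.689), and mutant replicate 1 was above mutant replicate 2. Cdt1 itself had 3.497 and 3.47 FPKM in the mutant and 3.38 and 3.47 FPKM in the wild-type libraries at E17.5, with overlapping groups and a log2 difference of 0.02 ± 0.07.

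Cdc6 was below the mean of 1 FPKM needed for a test at E17.5, with 0.872 and 0.869 FPKM in the mutant and 0.777 and 0.747 FPKM in the wild-type libraries, the mutants being the higher pair. At E12 its log2 difference was 0.26 ± 0.16, the largest among the licensing genes. The 6 Mcm genes, whose products form the replicative helicase, had log2 differences at E12 between 0.09 ± 0.12 (Mcm7) and 0.24 ± 0.12 (Mcm2), and at E17.5 between 0.07 ± 0.07 (Mcm5) and 0.16 ± 0.06 (Mcm6). Mcm6, whose promoter window has the E2F matches printed above, had 20.4 and 21.5 FPKM in the mutant and 19.04 and 18.3 FPKM in the wild-type libraries at E17.5, and Mcm7 had 19.7 and 23.5 FPKM in the mutant and 21.3 and 19.8 FPKM in the wild-type libraries. The Mcm6 groups did not overlap and the Mcm7 groups did, with mutant replicate 1 the lowest of the 4. Pcna had 52.4 and 60.0 FPKM in the mutant and 53.1 and 53.0 FPKM in the wild-type libraries, also with mutant replicate 1 the lowest.

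Of the enzymes that supply nucleotides, Tyms (thymidylate synthase) was higher in every mutant comparison. It had 12.47 FPKM in mutant and 10.5 FPKM in wild-type tissue at E12.0, and 12.6 FPKM in mutant and 10.7 FPKM in wild-type tissue at E12.5, and at E17.5 it had 4.98 and 5.78 FPKM in the mutant and 4.56 and 4.18 FPKM in the wild-type libraries. The log2 difference of Tyms was 0.22 ± 0.13 at E12 and 0.25 ± 0.09 at E17.5 (limma adjusted p = 0.689). Rrm1 and Rrm2 are the subunits of ribonucleotide reductase. Rrm2 had 8.58 and 10.7 FPKM in the mutant and 8.99 and 8.43 FPKM in the wild-type libraries at E17.5, with overlapping groups, and Rrm1 had 16.6 and 19.1 FPKM in the mutant and 16.3 and 15.3 FPKM in the wild-type libraries, with both mutants above both wild types. At E12 Rrm1 and Rrm2 had log2 differences of 0.16 ± 0.12 and 0.17 ± 0.12.

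The mitotic cyclins, Cdk1 and the linked regulators were higher in mutants at both early stages for 5 of 5 genes, and at E17.5 for 6 of 6. Ccnb1, the main cyclin B, had 70.8 FPKM in mutant and 57.0 FPKM in wild-type tissue at E12.0, and 60.6 FPKM in mutant and 52.3 FPKM in wild-type tissue at E12.5, and its log2 difference at E12 was 0.26 ± 0.12. At E17.5 it had 8.35 and 9.87 FPKM in the mutant and 8.46 and 7.56 FPKM in the wild-type libraries, where mutant replicate 1 lay between the wild types. Ccnb2 had 4.60 and 7.11 FPKM in the mutant and 4.79 and 3.90 FPKM in the wild-type libraries at E17.5. Its log2 difference of 0.34 ± 0.19 was among the largest of the set there, but mutant replicate 1 was below wild-type replicate 1 (limma adjusted p = 0.689).

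Ccna2, the cyclin used in both S phase and mitosis, had 8.48 and 11.7 FPKM in the mutant and 8.64 and 7.89 FPKM in the wild-type libraries at E17.5, with the same overlap. Melk, a kinase of dividing progenitors, had 2.07 and 2.27 FPKM in the mutant and 1.72 and 1.70 FPKM in the wild-type libraries, and its groups did not overlap. The transcription factor Foxm1 had 1.84 and 1.96 FPKM in the mutant and 1.83 and 1.69 FPKM in the wild-type libraries, with the lower mutant value just above the higher wild-type value. Its joint row at E12 listed 10.3 FPKM in mutant and 16.1 FPKM in wild-type tissue at E12.0, and 9.41 FPKM in mutant and 8.27 FPKM in wild-type tissue at E12.5. Since that row also holds 4933413G19Rik, it was not counted.

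Of the 4 mitotic kinases, Aurka had the largest difference at E12, 0.27 ± 0.12 on the log2 scale. It had 18.6 FPKM in mutant and 14.9 FPKM in wild-type tissue at E12.0, and 18.1 FPKM in mutant and 15.1 FPKM in wild-type tissue at E12.5, and at E17.5 3.60 and 4.54 FPKM in the mutant and 3.45 and 3.53 FPKM in the wild-type libraries, with mutants above wild types throughout. Aurkb, the kinase of the chromosomal passenger complex, was also above at each stage and had a log2 difference of 0.19 ± 0.09 at E17.5. Plk1, which drives entry into and exit from mitosis, had 24.1 (mutant) and 25.9 FPKM (wild type) at E12.0 and 21.7 (mutant) and 18.3 FPKM (wild type) at E12.5, lower in the mutant at the first stage and higher at the next. At E17.5 it had 3.19 and 3.95 FPKM in the mutant and 2.69 and 2.93 FPKM in the wild-type libraries, without overlap and with a log2 difference of 0.26 ± 0.11 (limma adjusted p = 0.689). Nek2, a centrosome kinase, had 2.05 and 2.60 FPKM in the mutant and 1.97 and 2.11 FPKM in the wild-type libraries, with overlapping groups.

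In the spindle checkpoint and at the kinetochore, Cdc20, the activator of the anaphase-promoting complex, had 49.8 FPKM in mutant and 37.3 FPKM in wild-type tissue at E12.0, and 46.6 FPKM in mutant and 41.2 FPKM in wild-type tissue at E12.5. This was a log2 difference of 0.29 ± 0.13. At E17.5 Cdc20 had 7.95 and 8.68 FPKM in the mutant and 7.79 and 7.55 FPKM in the wild-type libraries, with mutants above wild types by a log2 difference of 0.10 ± 0.07. Bub1b, a checkpoint kinase relative, had a log2 difference of 0.27 ± 0.12 at E12, and at E17.5 had 3.38 and 4.93 FPKM in the mutant and 3.81 and 3.62 FPKM in the wild-type libraries, where mutant replicate 2 was highest and mutant replicate 1 lowest. Cenpf, a large kinetochore protein, had 15.4 (mutant) and 18.4 FPKM (wild type) at E12.0 and 13.9 (mutant) and 11.3 FPKM (wild type) at E12.5, opposite in sign between the stages. At E17.5 Cenpf had 2.81 and 4.16 FPKM in the mutant and 2.64 and 2.60 FPKM in the wild-type libraries, with both mutants above the wild types and a log2 difference of 0.29 ± 0.15. The remaining genes of this group, Bub1, Ttk and Cenpe, had log2 differences of 0.08 ± 0.13 to 0.18 ± 0.14 at E12 and 0.12 ± 0.10 to 0.23 ± 0.12 at E17.5.

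Among the chromosome proteins Mki67, the proliferation marker Ki-67 that coats mitotic chromosomes, had the largest difference of the set at E17.5. It had 6.29 and 9.12 FPKM in the mutant and 5.87 and 5.68 FPKM in the wild-type libraries, with both mutants above both wild types and a log2 difference of 0.34 ± 0.16 (limma adjusted p = 0.689). The difference from the wild-type mean was 0.10 in mutant replicate 1 and 0.58 in mutant replicate 2. At E12 it had 25.2 (mutant) and 30.2 FPKM (wild type) at E12.0 and 21.2 (mutant) and 17.3 FPKM (wild type) at E12.5, and the log2 difference over both stages was 0.01 ± 0.17. Top2a, whose window holds the 4 CHR matches, had 14.5 and 19.8 FPKM in the mutant and 14.7 and 13.7 FPKM in the wild-type libraries at E17.5, with mutant replicate 1 between the wild types, and a log2 difference of 0.23 ± 0.13 at E12. The passenger complex members Birc5 (survivin) and Cdca8 (borealin) had log2 differences of 0.15 ± 0.12 and 0.23 ± 0.12 at E12 and 0.23 ± 0.13 and 0.08 ± 0.10 at E17.5.

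The spindle and cytokinesis genes were higher in mutants at both early stages for 5 of 5. Tpx2, a spindle assembly factor that activates Aurora A, had 28.7 FPKM in mutant and 24.4 FPKM in wild-type tissue at E12.0, and 27.0 FPKM in mutant and 23.0 FPKM in wild-type tissue at E12.5. At E17.5 it had 6.07 and 8.02 FPKM in the mutant and 5.95 and 4.98 FPKM in the wild-type libraries, without overlap, and its log2 difference was 0.22 ± 0.12 at E12 and 0.31 ± 0.14 at E17.5. Prc1, which bundles microtubules of the central spindle, had 9.36 and 11.6 FPKM in the mutant and 8.28 and 8.57 FPKM in the wild-type libraries at E17.5, also without overlap, and a log2 difference of 0.28 ± 0.10 (limma adjusted p = 0.689). Nusap1, a microtubule-binding protein, had 0.31 ± 0.14 on the same scale, and Hmmr, another, had 0.14 ± 0.12. Ect2, the exchange factor that starts the cleavage furrow, had 2.77 and 3.88 FPKM in the mutant and 3.11 and 2.86 FPKM in the wild-type libraries, with mutant replicate 1 the lowest of the 4 libraries and mutant replicate 2 the highest.

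In all, 17 of the 42 genes were higher in the mutant at E12.0, at E12.5 and without overlap at E17.5, as were 5.74% of all 12519 genes tested over all stages. These were Ccne2, Cdc6, Gmnn, Mcm2, Mcm5, Mcm6, Rrm1, Tyms, Melk, Aurka, Aurkb, Bub1, Cdc20, Cenpe, Nusap1, Tpx2 and Prc1. In the fit of all 8 libraries with stage as a block, 41 of 42 were higher in mutants, against 50.7% of 12519 genes tested, with a median log2 difference of 0.17. The lone exception was Ccnd2, at -0.00014 ± 0.25. Limma called none of the 42 and 0 genes in all (0.0%), and the smallest adjusted p of the set was 0.749. Foxd1 itself was thus not called either, at -2.25 ± 0.32 (limma adjusted p = 0.749). The spread in this fit mixes that between E17.5 replicates with how far the genotype difference varied between stages. At an unadjusted p under 0.05 there were 17 members, all higher in mutants, as were 2.44% of all genes. Gmnn (0.23 ± 0.06), Tyms (0.23 ± 0.06) and Melk (0.20 ± 0.05) had the smallest of these p-values. The genotype difference was also compared between E17.5 and E12 in 1 model: 24 of 42 genes had a more positive difference at E17.5, with a median of 0.01, and none passed the threshold, where 4 genes in all did (0.032%) and no member had an unadjusted p under 0.05.

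**Figure D5:**
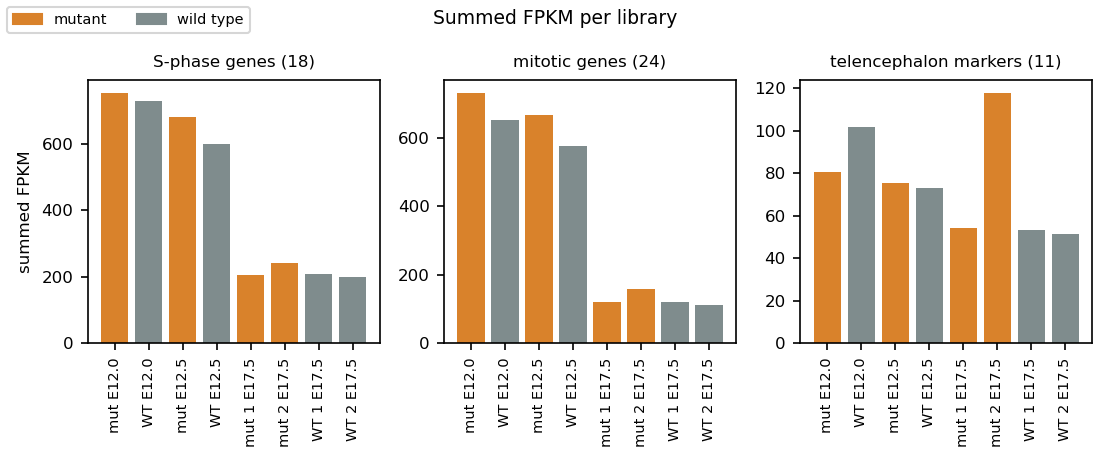
Summed FPKM per library of the 18 S-phase genes, the 24 mitotic genes with values at all stages and 11 telencephalon markers, with mutants in orange and wild types in grey. Both cell cycle sums are far lower at E17.5 than at E12, and mutant replicate 2 of E17.5 is the highest of its stage in all 3 panels.

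Other genes of the cell cycle were read from further lists. Of 30 other mitotic machinery genes, all 30 were higher in mutants at E12 (median 0.20), 24 at E12.0 alone and 29 at E12.5 alone. At E17.5, 28 were higher (median 0.17), but 18 (median 0.07) without mutant replicate 2. None passed the adjusted threshold at either age. One of the 2 lower genes at E17.5 was Pttg1 (securin, which guards sister cohesion), with 26.2 (mutant) and 15.8 FPKM (wild type) at E12.0 and 15.7 (mutant) and 13.3 FPKM (wild type) at E12.5. At E17.5 Pttg1 had 8.34 and 7.59 FPKM in the mutant and 11.5 and 10.4 FPKM in the wild-type libraries, both mutants below both wild types. Its log2 difference was 0.46 ± 0.16 at E12 and -0.42 ± 0.08 at E17.5 (limma adjusted p = 0.689), and Smc2, at -0.02 ± 0.13, was the other. Of 29 other replication genes 28 were higher at E12 (median 0.16), with 24 at E12.0 alone and 26 at E12.5 alone. At E17.5, 17 of the 28 tested were higher (median 0.06), and 13 (median -0.002) without mutant replicate 2. Gins2, a helicase cofactor, had the largest difference of that list at E12, 0.51 ± 0.16.

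The regulators upstream of these genes were mixed in direction, and at E12 their counts differed between the stages. Of 15 Rb and E2F family genes, 6 were higher in mutants at E12 (median -0.03), with 4 at E12.0 (median -0.13) and 12 at E12.5 (median 0.07), the stage without the wild-type E12.0 library. At E17.5, 11 of 12 tested were higher (median 0.09), and 9 (median 0.02) without mutant replicate 2. Of 12 further cyclins, kinases and their switches, 9 were higher at E12 (median 0.10), with 6 at E12.0 and 12 at E12.5. At E17.5, 9 were higher (median 0.05), and 4 (median -0.02) without mutant replicate 2. CDK inhibitors, which stop the cycle, were higher for 3 of 5 at E12, with 4 at E12.0 alone but 2 at E12.5 alone. At E17.5 they were higher for 2 of 4 (3 without mutant replicate 2). No gene of these 3 lists passed the adjusted threshold.

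Neural progenitor markers were higher in mutants for 7 of 11 at E12 (median 0.05), with 4 at E12.0 (median -0.07) and 8 at E12.5 (median 0.13). At E17.5 they were higher for 5 (median -0.02), and for 4 (median -0.03) without mutant replicate 2. Neuronal markers were higher for 1 of 12 at E12 (median -0.15), with 2 at E12.0 (median -0.27) and 3 at E12.5 (median -0.06). At E17.5 they were higher for 8 (median 0.04), and for 5 (median -0.009) without mutant replicate 2. Of 9 hypothalamic regulators 2 were higher at E12 (median -0.14), but the stages differed in sign, with 2 at E12.0 (median -0.55) and 5 at E12.5 (median 0.14). At E17.5 none of the 9 was higher (median -0.28), and 1 (median -0.29) without mutant replicate 2. No gene of these marker lists passed the adjusted threshold.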

How the data were processed

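FPKM values (fragment counts scaled by transcript length and library size) were used as the authors deposited them. Per the submitters' processing notes, reads were aligned with TopHat to mouse build mm9 and summarised with Cufflinks, and versions are not given in the sources used here. The members, lists and rules were chosen with earlier results of these data known. Rows of a symbol were summed and log2(FPKM + 1) was used. Genes averaging 1 FPKM or more in a comparison were tested with limma 3.58.1 in R 4.3.3, with a variance trend, two-sided, and Benjamini-Hochberg adjustment over all genes tested. Stage was a block in the E12 and all-stage fits, and levels at E12 and E17.5 were not tested against each other, though their genotype differences were compared in 1 model. Tested on simulated data, the fits called no gene when no change was put in. The noise was drawn independently for each gene and library, at the spread the fit itself assumes. Shifts shared by many genes of a library were not simulated, so this cannot show how the fits behave with them. Changes as small as those of the set were not simulated. How many such changes the fits would call is therefore not known. Depth was estimated from the steps between low FPKM values in transcripts over 2500 nt, and 78.6% to 80.6% of the E17.5 values but 30.7% to 41.0% of the E12 values came within 0.1 of a whole fragment, so no count test was run. Transcript lengths came from a GENCODE annotation matched by accession, and promoters from RefSeq. Members named with values were, per role, the one with the highest level and those with the most positive and the smallest or most negative differences at E17.5 and at E12, and the others were chosen after their values were seen. Alternatives changed the pseudocount, filter, normalization, trend, row joining, blocks and libraries. The replicate numbers of E17.5 were not stated to mark shared litters. Tables and plots were made with pandas 2.3.3, numpy 2.4.6 and matplotlib 3.10.9 under Python 3.11.15.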

Additional observations from a re-analysis of the deposited data

Results flagged for a closer look

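For 5 genes the mutant minus wild-type difference of log2(FPKM + 1) had opposite signs at the early stages, with 1 library per genotype at each stage, and the difference between the stages was not tested. Ccnd2 had -0.91 at E12.0 and 0.40 at E12.5. Mki67 had -0.25 at E12.0 and 0.28 at the next stage. Cenpf had -0.25 at the first of these stages and 0.27 at the next. Plk1 had -0.10 first and 0.24 next, and Ccnd1 -0.054 first and 0.18 next. Ccnd2, Mki67 and Cenpf are 3 of the 4 members with transcripts above 6000 nt.

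Cdk2 was higher in mutants at both early stages and lower in both mutant libraries at E17.5. The difference between its E17.5 and E12 genotype effects was -0.30 on the log2 scale and did not pass the adjusted threshold in limma (adjusted p = 0.749).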

How the results depend on the processing

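For the 28 named genes 1064 values were computed under alternatives. Of these, 1040 kept their direction and, where tested, their side of the threshold, and 23 changed sign. Values of E12.0 alone and E12.5 alone had no test and were judged by direction only. The remaining value was Ccnd2 at E17.5 without mutant replicate 1 (0.62), described with its limit above. The number of genes called at E17.5 was 0 without a filter, 0 with a filter at 5 FPKM, 16 with a replicate block, which called no member, and 1 to 44 with a library left out, and members called ranged from 0 to 1. With the 5 FPKM filter 24 members were higher at E17.5, since fewer were tested. The deviation of replicate 1 from replicate 2 was compared between mutant and wild type, with r = 0.028 across all genes and -0.27 across members. With 1 such deviation per genotype, this cannot settle whether the replicate numbers mark pairs. With a library left out at E17.5, log2 differences ranged from -0.0048 to 0.17 for Ccnd1, -0.10 to 0.62 for Ccnd2, -0.010 to 0.17 for Ccne1, -0.0545 to 0.19 for Mcm7, -0.018 to 0.17 for Pcna, -0.019 to 0.27 for Rrm2, -0.046 to 0.21 for Cdca8 and -0.080 to 0.30 for Ect2, the negative ends coming without mutant replicate 2 and, for Ccnd1, also without wild-type replicate 2. Cdt1 was -0.0001 there after quantile normalization. At E12 the genes called were 1 with a pseudocount of 5, 0 without a filter, 1 with quantile normalization, 1 without a trend and 78 without the stage block. Without small RNA genes the member median at E12 was 0.12, and Cenpf and Mki67 were -0.032 and -0.033. At E12.0 alone Ccnd1 was -0.054, Plk1 -0.10, Cenpf -0.25 and Mki67 -0.25, and at E12.5 alone Ccnd2 was 0.40. Over all stages Ccnd2 was 0.0028 with a pseudocount of 0.1, and with a library left out it ranged from -0.20 to 0.30 and Cdk2 from -0.037 to 0.11. For the difference between stages, a left-out library gave 0 to 1 genes called and 6 to 33 members higher. The causes were not tested. The E17.5 medians rest on mutant replicate 2, E12 has no replicates, and depth at E12 is uncertain.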
